A study of Homo sapiens with 10 samples.

Results

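The genes described here encode fibronectin, SPARC and other non-collagen proteins of the extracellular matrix, together with enzymes that cross-link it: FN1, SPARC, THBS1, THBS2, TNC, LOX, LOXL1, LOXL2, VCAN and POSTN. They were chosen by gene name as matrix genes, and are 10 of the 62656 genes in the deposited table. Their RNA was measured in PC3 cells, a human epithelial cancer line established from a bone metastasis of the prostate. After overnight starvation, the cells received either the vehicle DMSO or GW3965 at 1 µM for 24 h, and 5 libraries were made per condition. GW3965 is a synthetic compound that activates the liver X receptors (LXRs). Both conditions used this line without any genetic change named in the labels. Nothing states that the 5 libraries of a condition came from separate cultures, so p-values measure the spread between libraries, which may be technical.

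Fibronectin forms fibrils on the cell surface and links integrins to the matrix. SPARC, the thrombospondins, tenascin-C and periostin are matricellular proteins, which bind matrix and cells and modulate adhesion more than they give structure. Versican is a large proteoglycan that binds hyaluronan, and lysyl oxidase and its relatives oxidise lysines of collagen and elastin so that fibres become cross-linked. Fibronectin is widely used as a mesenchymal marker in work on epithelial to mesenchymal transition, and the question of the treatment was whether LXR activation moves such genes in PC3 cells. SPARC is among the genes that the study itself listed from these libraries, so its direction is not independent evidence.

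The libraries held from 30429384 to 41636379 reads, which were recovered from the deposited RPKM values (reads per kilobase of exon sequence after a scaling of each library). LXR activation showed in ABCA1, ABCG1 and SREBF1, whose mean levels with DMSO and GW3965 were 3.43 and 16.5, 1.57 and 7.06, and 12.5 and 20.9 RPKM (limma adjusted p = 0.00063, 0.000124 and 0.00362). Markers of leukocytes stayed at or under 0.0962 RPKM when summed over the list, and the epithelial keratin genes KRT8, KRT18 and KRT19 had means of at least 36.3 RPKM in each condition. Endothelial markers summed to 1.25 to 2.38 RPKM, mostly from KDR and PECAM1. Prostate luminal markers summed to 4.15 to 5.23 RPKM, with KLK3 at 0. Of the other epithelial markers, EPCAM had means of 1.57 RPKM with DMSO and 1.89 RPKM with GW3965, and CLDN4 of 22.7 and 25.0 RPKM. CDH1, the epithelial cadherin gene, was low, at 0.249 ± 0.126 RPKM with DMSO and 0.322 ± 0.172 RPKM with GW3965 (SD, n = 5). Since these are bulk libraries, fewer cells that express a gene and less RNA per cell cannot be told apart.

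RefSeq promoters (GRCh38.p14) were on hand for 8 of the 10 genes. Of these, 4 are shown, because SPARC and FN1 were low in the same libraries, TNC was high in those libraries, and THBS1 was the gene whose conditions did not overlap. Each is the 250 bases before the annotated start, read 5′ to 3′ on the strand of the gene. Capitals mark matches to a GC box (GGGCGG), a cAMP response element (TGACGTCA), a CCAAT box (CCAAT) or a TATA box (TATAAA), on either strand. SPARC lies on the − strand at chr5:151686916-151687165, FN1 on the − strand at chr2:215436069-215436318, TNC on the − strand at chr9:115118158-115118407 and THBS1 on the + strand at chr15:39580829-39581078.
SPARC: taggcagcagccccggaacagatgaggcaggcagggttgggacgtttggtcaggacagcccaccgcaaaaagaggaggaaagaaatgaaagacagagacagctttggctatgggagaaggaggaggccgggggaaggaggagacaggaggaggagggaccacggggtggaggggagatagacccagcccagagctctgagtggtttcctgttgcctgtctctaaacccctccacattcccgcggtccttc
FN1: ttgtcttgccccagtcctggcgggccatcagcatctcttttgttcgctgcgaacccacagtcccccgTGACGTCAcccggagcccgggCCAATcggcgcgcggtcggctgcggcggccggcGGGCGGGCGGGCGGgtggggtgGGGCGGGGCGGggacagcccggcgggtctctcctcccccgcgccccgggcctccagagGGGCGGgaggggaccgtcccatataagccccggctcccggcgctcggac
TNC: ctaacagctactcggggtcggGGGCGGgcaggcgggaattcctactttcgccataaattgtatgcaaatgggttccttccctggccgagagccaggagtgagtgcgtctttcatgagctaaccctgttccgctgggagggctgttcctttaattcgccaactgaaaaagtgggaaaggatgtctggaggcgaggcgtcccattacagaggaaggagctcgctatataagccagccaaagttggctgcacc
THBS1: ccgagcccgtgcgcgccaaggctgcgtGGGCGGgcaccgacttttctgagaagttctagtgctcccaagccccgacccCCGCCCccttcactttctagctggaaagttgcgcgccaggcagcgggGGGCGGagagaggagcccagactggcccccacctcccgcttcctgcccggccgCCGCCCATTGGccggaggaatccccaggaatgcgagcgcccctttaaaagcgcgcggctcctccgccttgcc

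These windows differed in the letters searched. The FN1 promoter held the cAMP response element, from base 183 to base 176 before the start, a CCAAT box from base 162 to base 158, and 6 GC boxes, of which 5 overlap another. The SPARC window held none of the motifs. THBS1 had GC boxes on both strands and a CCAAT box on the opposite strand, from base 66 to base 62 before the start, while TNC had 1 GC box. Over the 8 genes, a GC box occurred in 4, against 42.6% of all 35116 RefSeq promoters, a CCAAT box in 2, against 32.0%, the cAMP response element in 1, against 1.65%, and TATAAA in 2, against 10.7%. The genes with TATAAA were THBS2 and POSTN, which gave few or no reads here. Only these exact letters were searched, so the near match tataag in the FN1 and TNC windows was not counted. The nuclear receptor hexamer AGGTCA occurred in 0 of the 8 and in 12.1% of all promoters. A pair of these hexamers in the same direction, 4 bases apart, as in the elements that LXRs are known to bind, occurred in 5 of the 35116 promoters (0.0142%). A match describes letters in this window, and an absent match says nothing of more distant sequence.

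RPKM is per length, so levels of different genes can be set side by side only as far as the lengths hold. The length used was close to that of all annotated exons joined, 17216 bases for FN1 and 9589 for TNC. FN1 had more reads than TNC, 34095 against 30728 with DMSO and 36670 against 26080 with GW3965. The order given here thus depends on these lengths. SPARC had the highest mean in both conditions, followed by LOXL2, LOXL1, TNC, FN1, THBS1 and LOX. The order of SPARC and LOXL2 was not clear in single libraries: SPARC was above LOXL2 in 3 of 5 DMSO libraries and in 4 of 5 GW3965 libraries. LOXL1 was above TNC in 3 of 5 DMSO libraries and in 5 of 5 with GW3965, and TNC was above FN1 in 4 of 5 and in 5 of 5, with overlapping ranges in each condition. FN1, THBS1 and LOX did not overlap with the gene next below them in either condition. VCAN and THBS2 followed far below, and POSTN had no read.

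Of the 10 genes, 7 had a mean of at least 0.5 RPKM and were tested. None of the 7 passed an adjusted p of 0.05 in limma on log2(RPKM + 0.1), where 0.157% of the 20402 tested genes passed. A log2 fold change on this scale understates changes of genes with low values. With no adjustment, the limma p was under 0.05 for 1 of the 7 (THBS1), as it was for 6.99% of the genes fitted. Voom on the recovered reads also called 0 of the 7. The median log2 fold change of the 7 genes was 0.09, against 0.0034 over all tested genes, and 4 of the 7 were higher with GW3965.

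**Figure D1:**
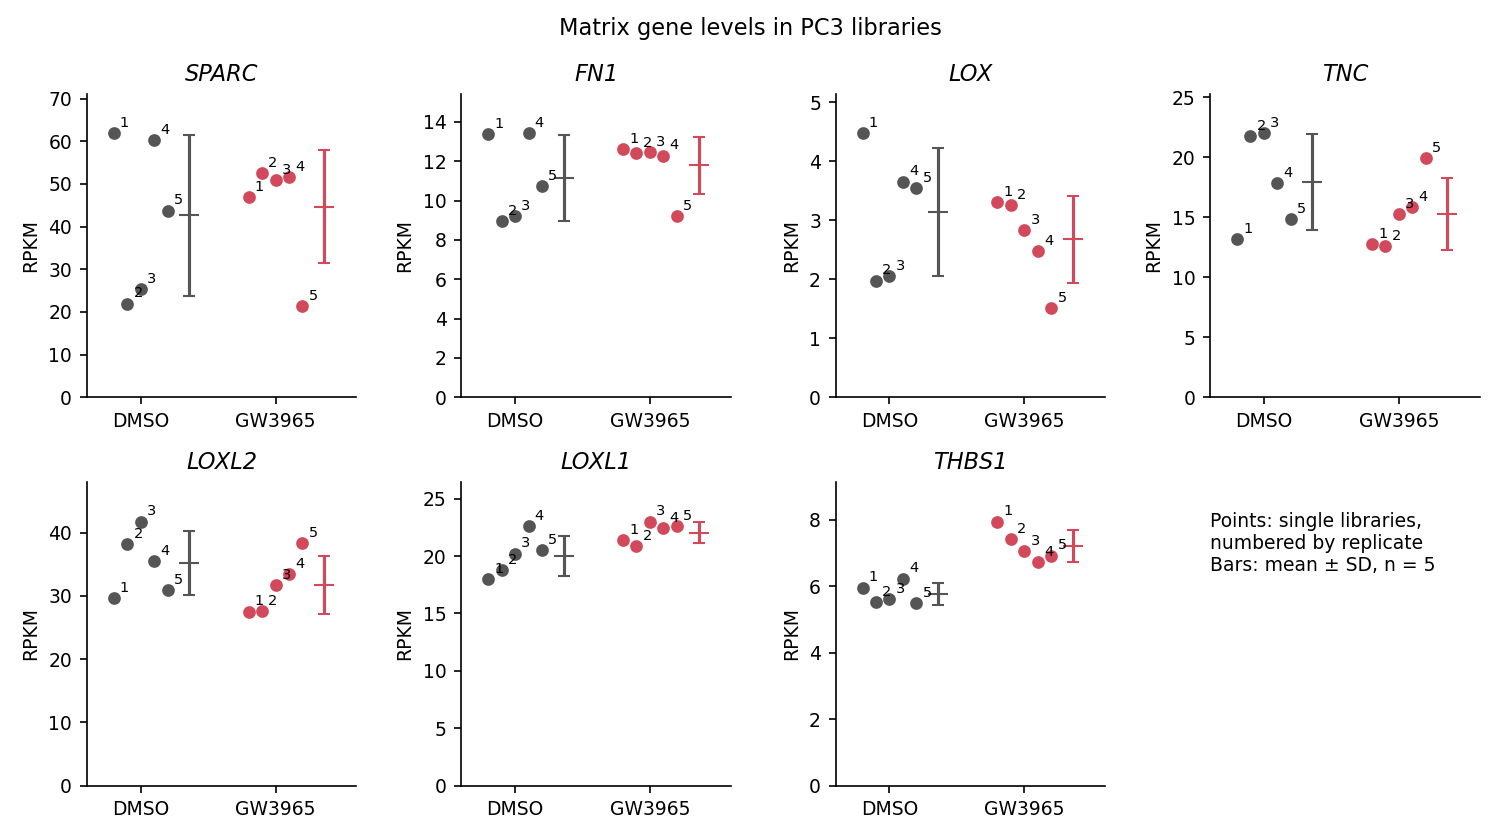
RPKM of the 7 tested matrix genes in each library, with the axis from 0; points are single libraries numbered by replicate, and bars are mean ± SD (n = 5). SPARC, FN1 and LOX are low in DMSO libraries 2 and 3 and in GW3965 library 5, and only for THBS1 do the conditions not overlap.

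FN1 encodes fibronectin (ENSG00000115414). Its gene lies on chromosome 2 of GRCh38, from 215360440 to 215436172 on the − strand. With DMSO its level was 13.4, 8.96, 9.22, 13.4 and 10.8 RPKM in libraries 1 to 5, and with GW3965 it was 12.6, 12.4, 12.5, 12.3 and 9.19 RPKM. The GW3965 libraries 1 to 4 were nearly equal, while DMSO libraries 2 and 3 and GW3965 library 5 were the lowest of the 10, and the conditions overlapped. The means were 11.1 ± 2.17 and 11.8 ± 1.46 RPKM (SD, n = 5). The log2 fold change was 0.09 ± 0.14 (SE) with a 95% interval from -0.21 to 0.39 (limma adjusted p = 0.955). It was 0.020 without DMSO library 2, 0.030 without DMSO library 3, 0.16 without DMSO library 1 or 4 and 0.18 without GW3965 library 5. With DMSO libraries 2 and 3 and GW3965 library 5 left out the log2 fold change was -0.0011 (95% interval from -0.21 to 0.21). These libraries were left out after FN1 was seen to be lowest in them, so this interval is only descriptive.

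SPARC (ENSG00000113140) encodes osteonectin, a collagen-binding glycoprotein. Its gene runs from 151661096 to 151687165 on the − strand of chromosome 5. In the DMSO libraries it stood at 61.9, 21.9, 25.2, 60.3 and 43.7 RPKM (libraries 1 to 5), and with GW3965 at 46.9, 52.5, 50.9, 51.7 and 21.4 RPKM. The values fell into separate ranges, with 3 libraries from 21.4 to 25.2 RPKM and 7 from 43.7 to 61.9 RPKM, and each condition had libraries in both. The low values rested on 4314, 3545 and 3209 reads, so counting error was small against these gaps. The means were 42.6 ± 18.8 and 44.7 ± 13.2 RPKM (SD, n = 5), and the log2 fold change was 0.12 ± 0.34 (SE) with a 95% interval from -0.63 to 0.88 (limma adjusted p = 0.978). With 1 library left out it reached 0.37 without GW3965 library 5, 0.29 without DMSO library 1 and 0.28 without DMSO library 4. It was 0.046 to 0.057 without GW3965 library 2, 3 or 4. Its sign turned without DMSO library 2 (-0.085), without DMSO library 3 (-0.034) and without the 3 low libraries together (-0.12). Those 3 were left out after SPARC was seen to be lowest in them, so that value is only descriptive.

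Thrombospondin-1, the product of THBS1 (ENSG00000137801), binds matrix and cell surface receptors and can activate latent TGF-beta. Its gene lies on chromosome 15 from 39581079 to 39599466 on the + strand. With DMSO its level was 5.96, 5.52, 5.598, 6.23 and 5.49 RPKM in libraries 1 to 5, and with GW3965 it was 7.94, 7.40, 7.04, 6.73 and 6.92 RPKM. The lowest GW3965 library exceeded the highest DMSO library, a separation found in 1.35% of the tested genes in this direction and in 1.84% in either direction. The means were 5.76 ± 0.321 and 7.21 ± 0.478 RPKM (SD, n = 5), a 1.25-fold difference with a 95% interval from 1.13- to 1.37-fold. On the log2 scale the difference was 0.32 ± 0.06 (SE), and it missed the threshold over all tested genes (limma adjusted p = 0.12; unadjusted p = 0.000363). The exact permutation test on the mean RPKM gave p = 0.00794, two-sided and not adjusted, which is the smallest that 5 libraries against 5 allow.
Over 23 alternative settings the log2 fold change of THBS1 lay between 0.28 and 0.35. The gene passed in 1 of them, with weights on the libraries (limma adjusted p = 0.043), and the adjusted p lay between 0.043 and 0.645 over all of them. The highest value came from the 7 libraries without DMSO libraries 2 and 3 and GW3965 library 5, where the log2 fold change was 0.30 ± 0.09 (SE). FSIP1, on the opposite strand, shares 4.89% of the exon bases of THBS1 and had from 16 to 46 reads per library, against 1552 to 2710 reads for THBS1.

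THBS2 encodes thrombospondin-2, a close relative. It had 33 reads over the DMSO libraries and 28 over the GW3965 libraries, from 0 to 13 per library, and a mean of 0.0232 RPKM over all of them. An exact permutation test gave p = 0.762 (two-sided, not adjusted), and at this depth a modest difference was not detectable. THBS2 was thus near the limit of detection in every library.

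TNC encodes tenascin-C, a hexameric matricellular protein (ENSG00000041982, chromosome 9, from 115019578 to 115118257 on the − strand). The DMSO libraries 1 to 5 had 13.2, 21.8, 22.01, 17.9 and 14.8 RPKM, and the GW3965 libraries had 12.7, 12.6, 15.2, 15.8 and 19.9 RPKM. The highest libraries were DMSO 2, DMSO 3 and GW3965 5, those with the lowest SPARC and FN1. The means were 17.9 ± 3.98 and 15.3 ± 2.98 RPKM (SD, n = 5). The log2 fold change was -0.22 ± 0.17 (SE) with a 95% interval from -0.59 to 0.14 (limma adjusted p = 0.87). With each library left out it lay between -0.33 and -0.14, the smallest sizes being -0.15 without DMSO library 2 and -0.14 without DMSO library 3.

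Among the cross-linking enzymes, LOX (ENSG00000113083) encodes lysyl oxidase itself, on the − strand of chromosome 5 from 122063195 to 122078360. With DMSO its level was 4.48, 1.98, 2.05, 3.65 and 3.54 RPKM in libraries 1 to 5, and with GW3965 it was 3.31, 3.26, 2.83, 2.48 and 1.51 RPKM. As for SPARC and FN1, the lowest values were in DMSO libraries 2 and 3 and GW3965 library 5, and the conditions overlapped. The means were 3.14 ± 1.09 and 2.68 ± 0.734 RPKM (SD, n = 5). On the log2 scale the difference was -0.20 ± 0.26 (SE) with a 95% interval from -0.78 to 0.38 (limma adjusted p = 0.944). Without GW3965 library 5 the log2 fold change was -0.016, without DMSO library 1 it was -0.058, without DMSO library 4 it was -0.13, without DMSO library 2 it was -0.34 and without DMSO library 3 it was -0.33. Without those 3 low libraries together it was -0.38, with a nominal 95% interval from -0.68 to -0.08, still not past the threshold (limma adjusted p = 0.777). These libraries were left out after LOX was seen to be lowest in them. The choice takes more low values from DMSO than from GW3965, so this interval is only descriptive and does not show a decrease. SRFBP1, on the opposite strand, shares 2.49% of the exon bases of LOX and had from 234 to 463 reads, close to the 274 to 865 reads of LOX.

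LOXL2 (ENSG00000134013), a relative of LOX found in many invasive tumours, followed TNC. Its DMSO values were 29.6, 38.2, 41.8, 35.5 and 30.9 RPKM in libraries 1 to 5, and with GW3965 it was 27.5, 27.6, 31.7, 33.5 and 38.4 RPKM. DMSO libraries 2 and 3 and GW3965 library 5 were again the highest. The means were 35.2 ± 5.05 and 31.7 ± 4.54 RPKM (SD, n = 5), and the log2 fold change was -0.15 ± 0.12 (SE) with a 95% interval from -0.41 to 0.11 (limma adjusted p = 0.875). It was -0.084 without DMSO library 3 and -0.22 without GW3965 library 5, the ends of its range with each library left out.

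LOXL1 (ENSG00000129038, chromosome 15, from 73925989 to 73952137 on the + strand) encodes an enzyme tied to elastic fibres. The DMSO libraries 1 to 5 had 18.02, 18.8, 20.2, 22.6 and 20.5 RPKM, and the GW3965 libraries had 21.4, 20.8, 23.0, 22.4 and 22.6 RPKM. The lowest 4 values were all from DMSO, and DMSO library 4 lay among the GW3965 libraries. The means were 20.0 ± 1.76 and 22.05 ± 0.903 RPKM (SD, n = 5). The log2 difference was 0.14 ± 0.07 (SE) with a 95% interval from -0.0034 to 0.29 (limma adjusted p = 0.725). The antisense gene LOXL1-AS1 shares 9.21% of its exon bases and had from 2120 to 4540 reads per library, against 2226 to 3167 for LOXL1. Its level was 18.3 RPKM with DMSO and 14.5 RPKM with GW3965, the opposite order. The kit keeps the strand of the RNA, but the strand setting of the authors' counting is not given in the sources used here.

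VCAN, which encodes versican, and POSTN, which encodes periostin, were not tested in the fit. VCAN had 420 reads over the DMSO libraries and 402 over the GW3965 libraries, from 45 to 127 per library, at 0.163 ± 0.0498 and 0.152 ± 0.0525 RPKM (SD, n = 5). An exact permutation test gave p = 0.762 (two-sided, not adjusted). POSTN had 0 reads in all 10 libraries. A count of 0 allows up to 3 reads per library for counting error alone, and no fold is given.

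**Figure D2:**
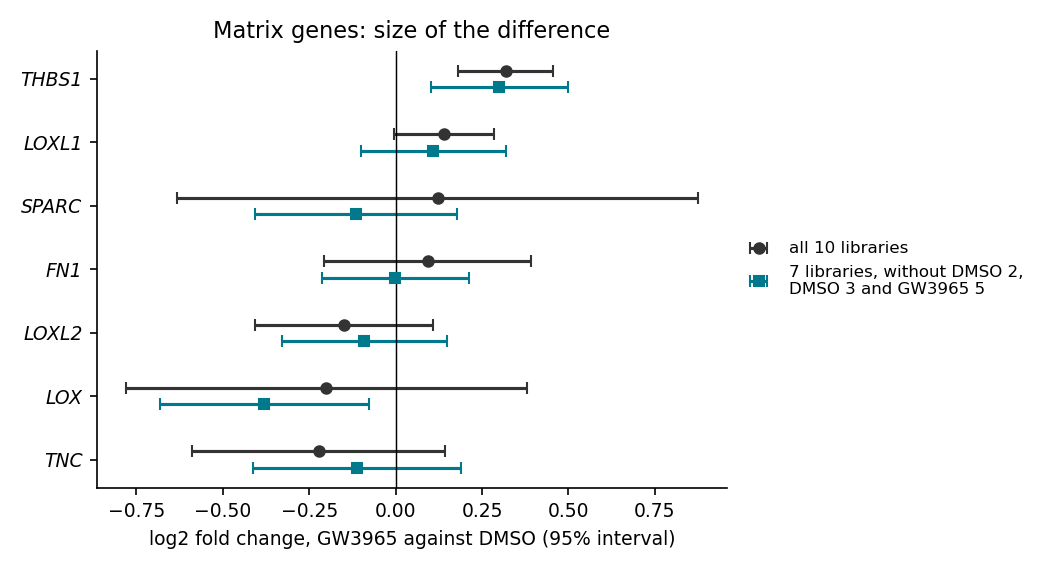
Log2 fold change of GW3965 against DMSO with its 95% interval for the 7 tested matrix genes, over all 10 libraries (circles) and over the 7 libraries left without DMSO 2, DMSO 3 and GW3965 5 (squares). The interval of THBS1 lies above 0 in both, and that of SPARC is the widest over all 10 libraries. That of LOX lies below 0 only in the second, but the libraries left out were picked with LOX, FN1 and SPARC seen to be lowest in them. The intervals over 7 libraries are thus only descriptive. None passed the adjusted threshold.

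The spread between libraries was large for most of these genes and unequal among them. Within conditions the SD of log2(RPKM + 0.1) was 0.63 for SPARC, 0.48 for LOX, 0.30 for TNC, 0.24 for FN1 and 0.20 for LOXL2, but 0.10 for LOXL1 and 0.09 for THBS1. Of the tested genes within 0.5 log2 units of its mean level, SPARC was more variable than 99.7% (of 731 genes), TNC than 96.2%, LOX than 94.9%, FN1 than 89.1% and LOXL2 than 82.2%. LOXL1 and THBS1 were in the lower part, above 22% and 15.2% of genes of like level. Across all 10 libraries, SPARC spanned 2.90-fold and LOX 2.96-fold, and THBS1, with both conditions included, 1.45-fold.

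The variable genes moved in the same libraries. DMSO 2, DMSO 3 and GW3965 5 were the lowest 3 libraries for SPARC, FN1 and LOX and the highest 3 for TNC and LOXL2. This held for 3 and 2 of the 7 tested matrix genes, and the libraries were picked out after these values had been seen. Over all tested genes, the same 3 libraries lay below all others for 2.03% and above all others for 2.30%. These libraries held 39384135, 30610148 and 31895744 reads, with 13.7%, 20.4% and 15.2% of the reads on 7SL RNAs, against 12.0 to 23.2% in all libraries, so neither measure set them apart. A list of 7 fibroblast markers summed to 3.003 to 3.52 RPKM in them and to 4.13 to 5.98 RPKM in the other 7 libraries. The difference lay in COL3A1, a fibrillar collagen gene, which had 1.97, 2.18 and 1.85 RPKM in these 3 libraries and at least 3.05 RPKM in the others, while 5 of the 7 markers were under 0.5 RPKM on average, COL1A2 and DCN among them at or under 0.0101 RPKM in each condition. The part of other cells or of culture conditions in this pattern was not tested.

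**Figure D3:**
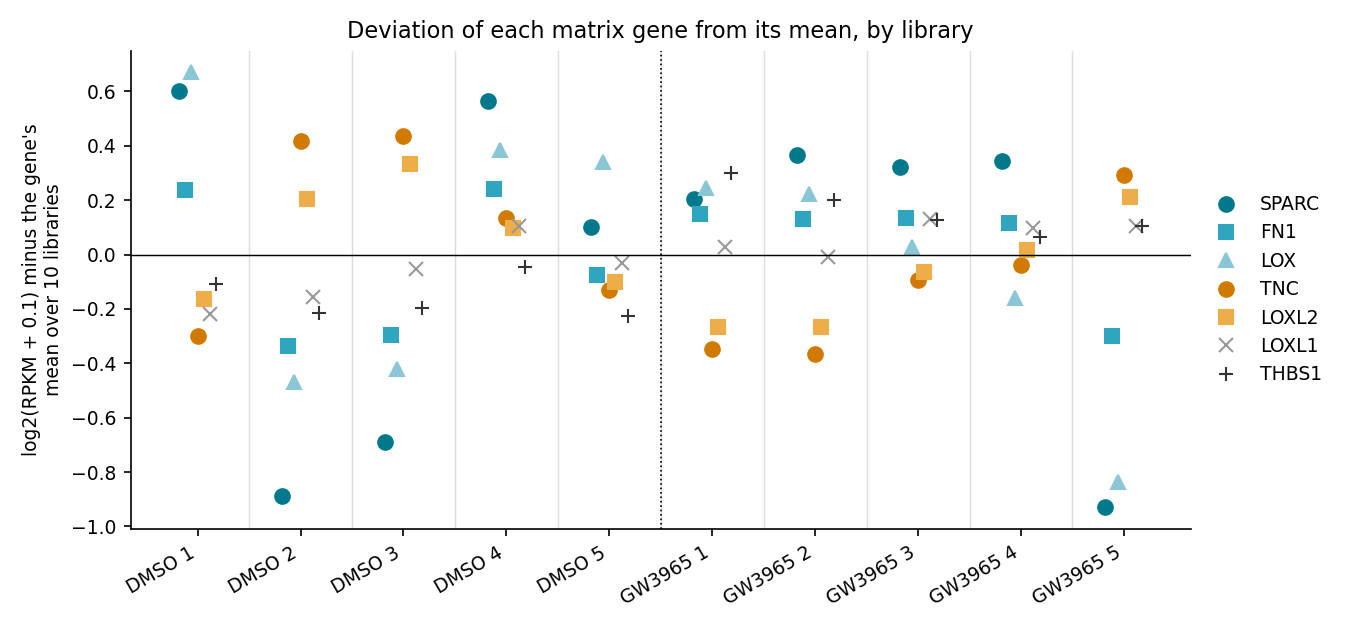
Deviation of log2(RPKM + 0.1) from the mean of each gene over 10 libraries (vertical axis), for the 7 tested matrix genes in each library (horizontal axis); the dotted line parts DMSO from GW3965. In DMSO 2, DMSO 3 and GW3965 5, SPARC, FN1 and LOX lie below 0 and TNC and LOXL2 above it.

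Since SPARC fell into separate ranges, correlations between the matrix genes were tested only over the other 7 libraries, 3 with DMSO and 4 with GW3965. There were 21 pairs among the 7 genes. TNC and LOXL2 varied together within these libraries, with Pearson's r = 0.981 (exact permutation p = 0.000397, adjusted to 0.00833 over the pairs). Spearman's rho was 0.964 (exact permutation test p = 0.00278, adjusted p = 0.0583), r without the 2 libraries farthest from the median of TNC was 0.956, and r with each condition centred was 0.979. With any of the 7 libraries left out, r lay between 0.968 and 0.992. The share of all gene pairs with so high an r was not computed. KRT18, an example chosen after its values were seen, was likewise lowest in DMSO 1, GW3965 1 and GW3965 2 (42.7, 42.9 and 44.1 RPKM). Like TNC and LOXL2, it was highest in DMSO 4 (58.5 RPKM). The order of the libraries was thus not particular to this pair. SPARC and FN1 had r = 0.866 (exact permutation test p = 0.0103, adjusted p = 0.108) and rho = 0.643 (exact permutation test p = 0.139, adjusted p = 0.707). Without the 2 libraries farthest from the median of FN1, r was 0.775 for that pair. None of the other pairs had an adjusted p under 0.314 by exact permutation of r, LOX with SPARC included.

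The genes whose pattern was most like that of SPARC, the most variable of the 7, were sought among 11659 tested protein-coding genes by Pearson's r over all 10 libraries, as a description. They were TMEM64 (r = 0.995, rho = 0.988), CLU, which encodes the extracellular chaperone clusterin (r = 0.976, rho = 0.855), FN1 itself (r = 0.975, rho = 0.867), MOXD1 (r = 0.975, rho = 0.855) and RBP4, a retinol carrier (r = 0.974, rho = 0.83). For LOX they were SPRY4, a feedback inhibitor of receptor tyrosine kinase signalling (r = 0.981, rho = 1), the potassium channel gene KCNN4 (r = 0.974, rho = 0.952), GLI3, a transcription factor of Hedgehog signalling (r = 0.970, rho = 0.988), FAM131B (r = 0.961, rho = 0.952) and HSPG2, which encodes the matrix proteoglycan perlecan (r = 0.956, rho = 0.903). As examples, TMEM64 was at most 12.3 RPKM in DMSO 2, DMSO 3 and GW3965 5 and at least 15.1 RPKM in the others, and SPRY4 was at most 44.2 RPKM in the former and at least 48.9 RPKM in the latter. These coefficients rank likeness and span the separate ranges of SPARC, so they carry no test, and within the other 7 libraries SPARC and FN1 had the lower r of 0.866 given above. The points share their libraries and depth, and all 10 genes were lower in the 3 libraries than in any other.

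Other genes of matrix assembly, cross-linking and adhesion came from 8 lists of 81 genes without the 10 above. Of these, 48 were tested, 0 passed an adjusted p of 0.05 in limma (against 0.157% of all tested genes), and for 5 the p before adjustment was under 0.05, against 6.99% of all tested genes (ITGA3, ITGB5, FERMT2, TNXB and MATN2). Their median log2 fold change was 0.03, with 27 of 48 higher with GW3965, and the conditions did not overlap for 4 of them (ITGA3, FERMT2, TNXB and HAS2), against 1.84% of all tested genes. ITGB5 and FERMT2 were chosen after their values were seen, as were ITGA5, ITGB1 and the genes named below for the pattern in 3 libraries.

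**Figure D4:**
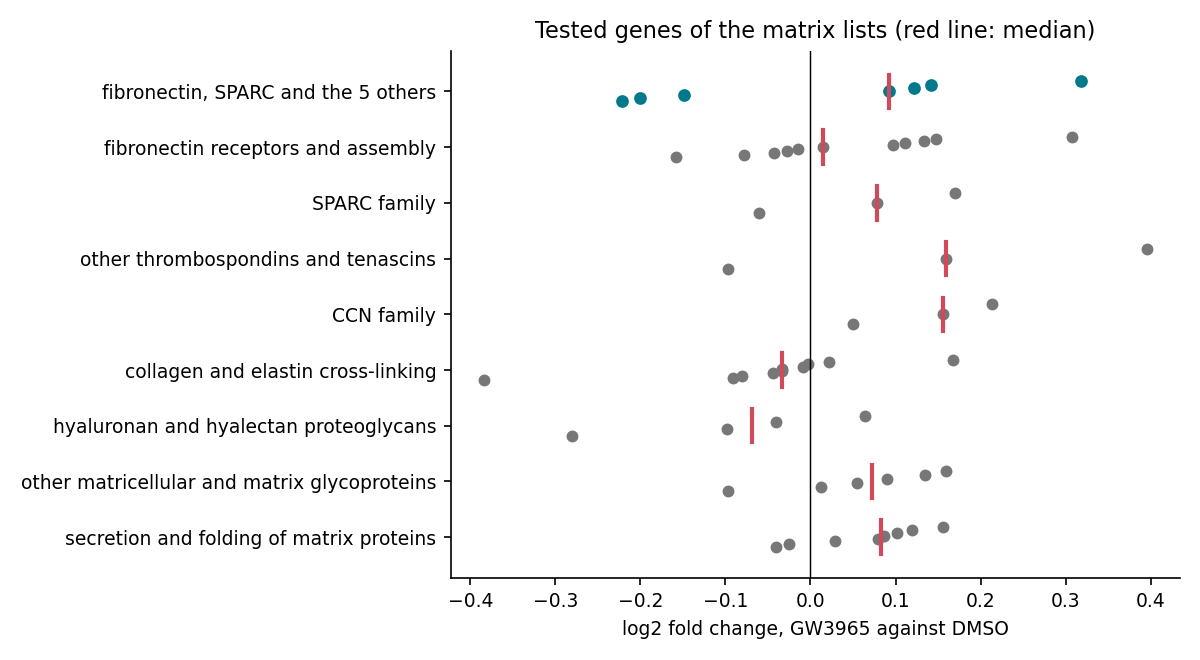
Log2 fold change of GW3965 against DMSO (horizontal axis) for the tested genes of each matrix list, with the 7 tested genes described here in the top row; the red line is the median. Medians lie between -0.07 and 0.16, and no gene passed the adjusted threshold.

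Of 14 genes of fibronectin receptors and assembly, 11 were tested. ITGA3, an integrin chain best known from laminin receptors, was at 75.6 ± 5.88 RPKM with DMSO and 93.4 ± 4.16 RPKM with GW3965 (SD, n = 5). The log2 difference, 0.31 ± 0.06 (SE), was the highest of the list (limma adjusted p = 0.128), and it passed with the first principal component of the log values as a covariate (limma adjusted p = 0.0298). The lowest was ITGB3, with -0.16 ± 0.13 (SE). ITGA5, the chain of the classic fibronectin receptor, had a log2 fold change of -0.03 and ITGB1, its partner, one of 0.10. The median of the list was 0.01.
Of the SPARC family, 3 of 7 genes were tested, from SPOCK1 (log2 fold change -0.06) to SPOCK3 (0.17), with a median of 0.08. Of 8 other thrombospondin and tenascin genes with thrombospondin receptors, 3 were tested. TNXB, which encodes tenascin-X, had the highest difference, with 1.96 ± 0.11 RPKM with DMSO and 2.63 ± 0.431 RPKM with GW3965 (SD, n = 5) and a log2 fold change of 0.40 (limma adjusted p = 0.266). The near-identical pseudogene TNXA makes its reads uncertain. THBS3 was lowest, with a log2 fold change of -0.10.

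In the CCN family of matricellular proteins, 3 of 6 genes were tested, and all 3 had positive values, from CTGF (CCN2, log2 fold change 0.05) to NOV (CCN3, 0.21), with a median of 0.16. Of 13 genes of collagen and elastin cross-linking, 10 were tested, with a median of -0.03. TGM2, which encodes a transglutaminase, had the lowest log2 fold change, -0.38 ± 0.30 (SE, limma adjusted p = 0.872), and FBN1, the fibrillin-1 gene, was highest with 0.17. For 6 of the 48 genes, DMSO 2, DMSO 3 and GW3965 5 lay above all other libraries, against 2.30% of all tested genes. They were TGM2, LOXL4, PLOD2 and P4HA2 of this list, with SDC4 and CYR61 (CCN1). NOV and CREB3L1 were the 2 that lay below all others there, against 2.03% of all tested genes. The libraries were picked after the matrix genes had been seen, and these counts were not tested.
Of 11 genes of hyaluronan and its proteoglycans, 4 were tested, with a median of -0.07. HAS2, a hyaluronan synthase gene, was lowest, with 0.82 ± 0.0575 RPKM with DMSO and 0.666 ± 0.124 RPKM with GW3965 (SD, n = 5) and a log2 fold change of -0.28 (limma adjusted p = 0.785), and CD44, a hyaluronan receptor gene, was highest with 0.06. Of 14 other matrix glycoprotein genes, 6 were tested, from EFEMP2 (log2 fold change -0.10) to MATN2 (0.16), with a median of 0.07. All 8 genes of secretion and folding were tested, from CREB3L2 (log2 fold change -0.04) to PPIB (0.16), with a median of 0.08.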

How the data were processed

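The authors prepared stranded total RNA libraries depleted of ribosomal RNA, while the labels name polyA RNA. After alignment of single 50-base reads with HISAT2 and counting by gene, the authors deposited RPKM values. The submitters' processing notes name hg38, HISAT2 2.1.0 and HTSeq 0.11.2, whereas the paper names the mouse genome, and all identifiers in the file are human. Columns were matched to libraries by title.

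Because the values of a gene are multiples of what 1 read is worth, reads were recovered (99.99% of values above 0 were whole within 0.01 read), and 4 genes were set from GENCODE 29 lengths. The deposited values already carried median-of-ratios factors. limma 3.58.1 in R 4.3.3 (trended eBayes, two-sided, Benjamini-Hochberg, threshold 0.05) was fitted to log2(RPKM + 0.1) of the 20402 genes averaging 0.5 RPKM or more. The planned tests of correlation over 10 libraries were replaced by those over 7. Reads cover counting error only. On simulated data of 20402 genes, 36 of 73 changes of 0.5, 60 of 67 of 1 and 52 of 60 of 2 (log2) were recovered, with 12 of 160 calls false. The simulated reads had the same dispersion of 0.01 for every gene and no pattern shared between genes of a library. Genes as variable as SPARC, LOX, TNC, FN1 and LOXL2 were not simulated, so this recovery does not apply to them.

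The members, gene lists and tests were chosen with earlier results of these data known. Named genes were the members, list genes past the threshold or at either end of their list, the 5 genes most like SPARC and LOX, and ABCA1, ABCG1 and SREBF1. ITGA5, ITGB1, ITGB5, FERMT2, SDC4, CYR61, LOXL4, PLOD2, P4HA2 and CREB3L1 are outside this rule and were chosen after their values were seen. Protein sequences were not used here. Alternatives were other pseudocounts, filters and scalings, the replicate block, no trend, library weights, voom on recovered reads, covariates, and the loss of libraries. The loss of DMSO 2, DMSO 3 and GW3965 5 together was chosen after the data were seen.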

Additional observations from a re-analysis of the deposited data

Results flagged for a closer look

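In 6 of 52 groups of 5 libraries, for 26 named genes, 1 library lay far from the other 4. Independent groups would pass this limit in about 1 in 20, here 2.6. These groups share libraries, and many of the genes were picked by their values here, so 2.6 is not a valid expectation for them. GW3965 library 5 was the one in 5 of the 6. Divided by the log2 range of its condition, the gap to the nearest library came to 0.92 for FN1 (9.19 against 12.3 to 12.6 RPKM), 0.875 for SPARC (21.4 against 46.9 to 52.5 RPKM) and 0.764 for NOV (3.29 against 4.46 to 4.89 RPKM), each lowest in that library. It was 0.843 for TGM2 (14.5 against 6.68 to 7.55 RPKM) and 0.803 for ITGA3 (100.7 against 90.3 to 92.2 RPKM), each highest there. HAS2 was lowest in GW3965 library 4, with a gap of 0.774 (0.453 against 0.679 to 0.761 RPKM).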

How the results depend on the processing

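Over all tested genes, 32 passed the threshold, and the count was 21 with no filter, 20 with no trend, 56 with library weights, 21 with the 7SL share and 83 with the first principal component as a covariate, and 10 with DMSO 2, DMSO 3 and GW3965 5 left out. It lay between 17 and 38 with each library left out, with 18 without DMSO library 3, 17 without GW3965 library 2 or 4 and 19 without GW3965 library 3. Of the matrix genes described, 0 passed in the main setting and 1 (THBS1) with library weights, and 0 with each library left out. Of the list genes, 1 (ITGA3) passed with the first principal component and 0 with each library left out. The log2 fold change of SPARC reversed without DMSO library 2 (-0.085), without DMSO library 3 (-0.034; highest value 0.37, without GW3965 library 5) and without the 3 libraries (-0.12), as did that of FN1 without the 3 (-0.0011). The other 5 genes kept their sign in all 23 settings. The pair TNC and LOXL2 did not pass with any library left out (0 pairs in each case), although its r stayed between 0.968 and 0.992. With 6 libraries the permutation p has coarser steps than with 7, so the 2 results are not on the same footing. With the replicate block, 16 of all tested genes and 0 of the matrix genes passed. Deviations of same-numbered libraries correlated with r from -0.14 to 0.16, so the numbers were not taken as a pairing. The causes were not tested.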
